A study of Homo sapiens with 8 samples.

Results

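The cytosolic ribosomal protein genes encode the proteins of the 40S and 60S subunits of the cytoplasmic ribosome. They were taken from the expression table by symbol, as RPL or RPS followed by a number and at most 1 letter A, X or L, together with RPSA, RPLP0, RPLP1 and RPLP2. This gave 81 of the 22504 genes in the table: 43 genes of the large subunit, 31 of the small subunit, 3 of the acidic stalk (RPLP0, RPLP1 and RPLP2) and 4 paralogs (RPS27L, RPL3L, RPL10L and RPL39L). They lie on 21 chromosomes, with 12 on chromosome 19 and 8 on chromosome 3.

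A ribosome holds a single copy of nearly every one of these proteins beside its ribosomal RNAs, so a growing cell needs them in near-equal amounts. Most of their mRNAs begin with a C followed by a run of pyrimidines, the 5' terminal oligopyrimidine (TOP) tract. Growth factors and amino acids act on such mRNAs mainly through their translation, by way of mTOR and the RNA-binding protein LARP1, and transcript levels do not report translation. Some of the proteins have roles off the ribosome: RPL5 and RPL11 bind the ubiquitin ligase MDM2, and RPS6 is the classic substrate of S6 kinase.

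Poly(A) RNA was sequenced from U2OS cells, an established human osteosarcoma line. The cells overexpressed the actin mutant G13R, or expressed GFP in its place as controls, and were taken under serum stimulation and under normal growth. The groups are therefore G13R after serum, G13R in normal growth, GFP after serum and GFP in normal growth, with 2 libraries each. The labels do not say which actin gene carries the mutation, how it was delivered, how long serum was given or whether libraries of a group are separate cultures. The p-values therefore reflect the spread among libraries, which may be technical. The values are FPKM, fragments scaled to transcript length and to the library's mapped fragments. Summed FPKM lay between 496166 and 559496 per library, read depth is unknown, and Pearson's r across genes lay between 0.980 and 0.989 for libraries of the same group. Of 8 osteoblast lineage markers, ALPL, COL1A1, SPARC and RUNX2 were at 1 FPKM or more in every library, and SP7, IBSP and COL1A2 were below 1 FPKM in every library. All 4 leukocyte and all 4 endothelial markers checked were below 1 FPKM in all 8 libraries. Of 4 epithelial markers EPCAM, and of 4 neural markers MAP2 and SYP, were at 1 FPKM or more in every library.

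The starts of the genes on which the results turn are shown first, because the TOP tract is the sequence that most of the family shares. RefSeq promoter entries (GRCh38.p14) were found for 64 of the 81 genes. Each line gives 15 bases before the annotated transcription start and 15 bases from it, 5' to 3' on the gene's strand. Capitals mark the unbroken run of C and T that begins at the start. RPS26, RPL24, RPL3 and RPL28 are the genes that changed with serum, RPL27A had the lowest fold change between G13R and GFP cells in normal growth, and RPS27 with RPS27L and RPL26 with RPL26L1 are pairs of a ribosomal protein gene and its paralog. RPL26L1 has 2 annotated starts.
RPS26: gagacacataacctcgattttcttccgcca
RPL24: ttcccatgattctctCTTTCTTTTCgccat
RPL3: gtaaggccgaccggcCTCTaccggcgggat
RPL28: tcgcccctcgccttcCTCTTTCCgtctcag
RPL27A: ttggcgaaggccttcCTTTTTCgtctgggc
RPS27: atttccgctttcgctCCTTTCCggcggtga
RPS27L: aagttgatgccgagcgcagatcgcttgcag
RPL26: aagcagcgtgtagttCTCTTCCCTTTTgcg
RPL26L1: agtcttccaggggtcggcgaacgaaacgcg
RPL26L1: ggcggggcggcggccacaaacccgcaggca

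In GRCh38.p14 these windows are chr12:56041903-56041932 (plus strand) for RPS26, chr3:101686704-101686733 (minus) for RPL24, chr22:39319609-39319638 (minus) for RPL3 and chr19:55385917-55385946 (plus) for RPL28. RPL27A is at chr11:8682777-8682806 (plus), RPS27 at chr1:153990747-153990776 (plus), RPS27L at chr15:63157463-63157492 (minus) and RPL26 at chr17:8383179-8383208 (minus). The starts of RPL26L1 are at chr5:172958714-172958743 and chr5:172958865-172958894 (plus). RPL24, RPL28, RPL27A, RPS27 and RPL26 begin with such a tract, RPL3 begins with a shorter run, and RPS26, RPS27L and both starts of RPL26L1 have no pyrimidine run at the annotated base.

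Over the 64 matched genes, 46 (71.9%) had a run of at least 5 pyrimidines beginning with C exactly at an annotated start, against 5.14% of the 27305 genes in the RefSeq table. Within 5 bases of the start the count was 53 (82.8%), against 25.2% of all genes. The pyrimidine run that held the start had a median length of 11 bases, against 0 over all genes. Within 20 bases of the start on the gene's strand, CTTTCC was present in 20 genes (31.2%, against 2.56% of all), CTTTTC in 12 (18.8%, against 2.04%) and TTCTTT in 5 (7.81%, against 2.29%). At least 1 of these 3 words, which can overlap each other, was present in 33 (51.6%, against 6.11%). On the opposite strand CTTTCC was found in 1 of the genes (1.56%, against 2.01%), and TTCTTT and CTTTTC in 0 (against 1.61% and 1.45%). A match describes the letters of these windows and is not evidence of a bound factor.

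The family was among the most abundant in the libraries. Averaged over the 8 libraries, 77 of the 81 genes were at 100 FPKM or more, 72 at 500 or more, and 41 at 1000 or more. The highest means were those of RPS21 (2809.7 FPKM), RPL41, the smallest protein of the large subunit (2757 FPKM), RPS29 (2694 FPKM), RPS3 (2284 FPKM) and RPL8 (2255 FPKM), and the 5 highest together held 14.02% of the family's summed FPKM. The lowest were RPL3L (0.255 FPKM), RPL26 (1.44 FPKM), RPL10L (29.7 FPKM), RPL39L (34.0 FPKM) and RPS28 (222 FPKM). Without RPL26 and the 4 paralogs, 76 genes remained, with a median of 1034 FPKM and a 12.68-fold range between lowest and highest. The median was 1024 FPKM for large subunit genes and 1127 FPKM for small subunit genes.

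**Figure D1:**
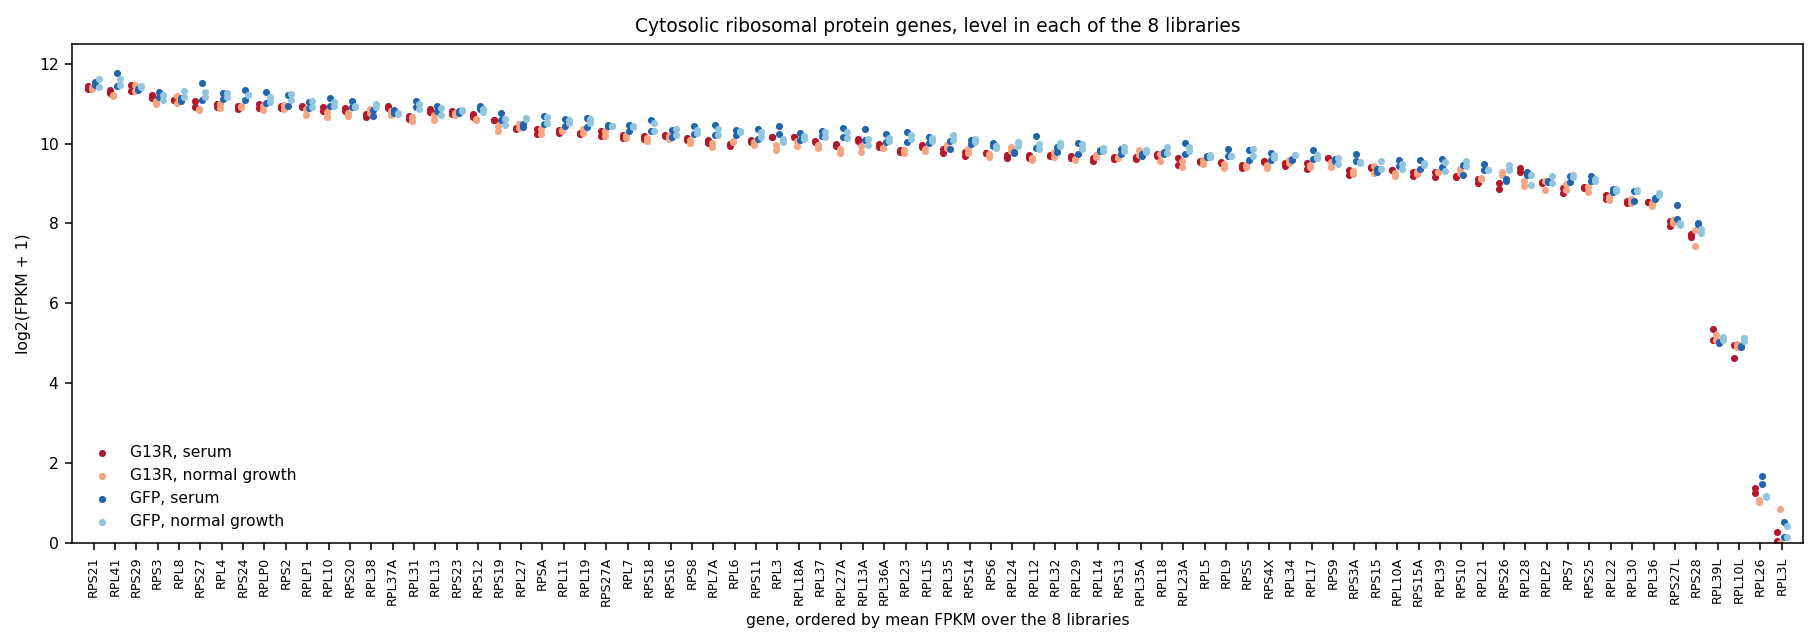
Level of 80 of the 81 genes in each of the 8 libraries, as log2(FPKM + 1), ordered by mean FPKM; points are single libraries coloured by group. Most genes form an even slope between RPS21 and RPS28, and RPL39L, RPL10L, RPL26 and RPL3L lie far below it.

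The genes also kept their order. The lowest Spearman correlation between any 2 libraries over the 81 genes was 0.977, a description over genes that share each library's scaling. The highest library exceeded the lowest by a median of 1.31-fold for the 76 genes, with a range of 1.09-fold for RPS23 to 1.59-fold for RPS27, against a median of 1.70-fold over the 12996 genes tested. For 71 of the 76 genes this ratio was under 1.5-fold, which held for 32.1% of all tested genes.

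As a share of summed FPKM, the 81 genes took 17.0% and 17.4% in the G13R serum libraries and 16.4% and 16.7% in the G13R normal growth libraries. They took 17.9% and 19.1% in the GFP serum libraries and 17.3% and 17.9% in the GFP normal growth libraries. The means were 17.2% ± 0.295, 16.6% ± 0.197, 18.5% ± 0.803 and 17.6% ± 0.422 in that order (SD, n = 2 each). The G13R libraries lay below the GFP libraries of the same condition without overlap, and the serum libraries lay above the normal growth libraries in G13R cells, while in GFP cells the nearest libraries were both at 17.9%. Between a pair of groups with 2 libraries each no exact test can pass the threshold, and none was run. The ratio of large subunit and stalk to small subunit FPKM averaged 1.32 in both G13R groups, against 1.33 in GFP serum and 1.34 in GFP normal growth libraries. In bulk RNA, a lower share of these mRNAs in every cell and fewer cells with high levels cannot be told apart.

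**Figure D2:**
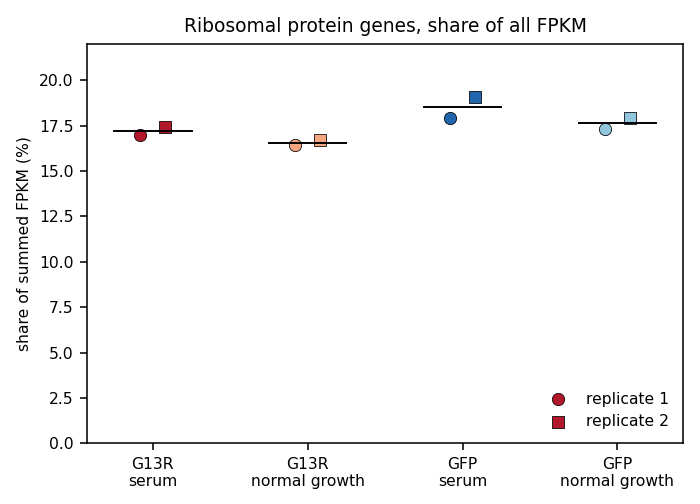
Share of summed FPKM held by the 81 genes in each library (y axis, percent, from 0), by group; circles are replicate 1, squares replicate 2 and lines the mean of 2 libraries. G13R libraries lie between 16.4 and 17.4%, GFP libraries between 17.3 and 19.1%.

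ACTB, the cytoplasmic beta-actin gene, took 1.57 to 2.27% of summed FPKM in G13R libraries, against 0.480 to 0.497% in GFP libraries. With ACTB left out of the sum, the share was 17.5% in G13R serum, 16.9% in G13R normal growth, 18.6% in GFP serum and 17.7% in GFP normal growth libraries. Replicate 2 was above replicate 1 for 66 of the 81 genes in G13R serum, 74 in G13R normal growth, 72 in GFP serum and 70 in GFP normal growth libraries. These counts cover the family only, and its share of summed FPKM was also the higher in replicate 2 of each group. Results under other scalings are given below.

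In GFP cells the family's fold changes with serum centred on 0. The 80 genes that passed the filter (all but RPL3L, which never reached 1 FPKM) had a median log2 fold change, serum over normal growth, of 0.00, with 39 above and 41 below 0, where all 12996 genes had a median of 0.01. With limma on log2(FPKM + 1) and Benjamini-Hochberg adjustment over all genes at 0.05, 1 gene rose and 2 fell. That is 3 of 80, against 30.7% of all tested genes called in either direction and 15.7% called lower. At an unadjusted p under 0.05 there were 7 of the 80, against 42.4% of all. The count and its split depended on the scaling: 1 rose and 5 fell with median-ratio scaling, 11 rose and 2 fell with each library scaled to the same summed FPKM (TPM), and 13 rose and 6 fell with quantile normalization. Of the 12996 genes tested, 4084, 3922 and 3656 were called under these scalings, in that order, against 3985 with the values as deposited. The family's median was -0.02, 0.07 and 0.05 under these scalings, so it has no stable direction.

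The gene that rose in GFP cells was RPL3 (22:39708887-39716394 in hg19, the build of all gene spans below), whose protein lies near the peptidyl transferase centre of the large subunit. RPL3 was at 1219 and 1386 FPKM in GFP serum libraries, against 1049.7 and 1103 FPKM in GFP normal growth libraries, and the groups did not overlap. Its log2 fold change was 0.27 ± 0.08 (SE; limma adjusted p = 0.0267). In G13R cells RPL3 was at 1148 and 1157 FPKM after serum, against 917 and 994 FPKM in normal growth, again without overlap. That log2 fold change was also 0.27 ± 0.08, at a limma adjusted p of 0.0503, and the difference between the responses was 0.00 ± 0.11 (limma adjusted p = 0.999). The GFP call was lost in turn without either GFP normal growth library, without GFP serum replicate 2 and without either G13R serum library.

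RPS26 fell with serum in both kinds of cell. Its protein sits at the mRNA exit channel of the small subunit, and the gene is mutated in Diamond-Blackfan anaemia. RPS26 (12:56435637-56438116) was at 534 and 549 FPKM in GFP serum libraries, against 647 and 709.7 FPKM in GFP normal growth libraries. It was at 462 and 517 FPKM in G13R serum libraries, against 593 and 621 FPKM in G13R normal growth libraries. Neither pair of groups overlapped, and serum libraries were the lower in both. The log2 fold change was -0.32 ± 0.08 in GFP cells (limma adjusted p = 0.0126) and -0.31 ± 0.08 in G13R cells (limma adjusted p = 0.0304), with a difference of 0.01 ± 0.11 (limma adjusted p = 0.98). The GFP call was lost without GFP normal growth replicate 2, where the adjusted p was 0.104 (range over all settings 0.0027 to 0.104), and the G13R call was lost without any 1 of the 4 G13R libraries. Of the 50-base windows of RPS26 transcripts, 25.8% occur in other transcripts, so its reads may be divided with near-identical copies and its level is uncertain. The same limit applies to RPL24 (25.7%) and RPL3 (30.3%), while the share was 1% for RPL28.

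RPL24 (3:101399935-101405626), a large subunit protein at the bridge to the small subunit, fell in GFP cells. RPL24 was at 869 and 889.5 FPKM in GFP serum libraries, against 989.7 and 1056 FPKM in GFP normal growth libraries, which did not overlap. Its log2 fold change was -0.22 ± 0.07 (limma adjusted p = 0.0404). In G13R cells it was at 803 and 838 FPKM after serum, against 902 and 972 FPKM in normal growth, also without overlap, with a log2 fold change of -0.19 ± 0.07 (limma adjusted p = 0.104). The GFP call was lost without any 1 of the 4 GFP libraries and without either G13R serum library.

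In G13R cells, 2 of the 80 genes were called with serum, 1 higher and 1 lower, against 12.9% of all tested genes called in either direction and 4.62% called lower. At an unadjusted p under 0.05 there were 7, against 29.3% of all. The median log2 fold change was 0.05, with 52 genes above and 28 below 0, against 0.04 over all genes. By scaling, 1 rose and 2 fell with median-ratio scaling and 5 rose and 2 fell with TPM. With quantile normalization 8 rose and 3 fell. The medians were 0.00, 0.06 and 0.05 in that order. Of the 12996 genes tested, 1802, 1731 and 1571 were called in the same order, against 1675 with the values as deposited. RPS26 was the gene that fell. RPL28 (19:55896713-55914612), a large subunit protein, rose: it was at 674 and 629.6 FPKM in G13R serum libraries, against 488 and 532 FPKM in G13R normal growth libraries, without overlap. Its log2 fold change was 0.35 ± 0.09 (limma adjusted p = 0.0353), lost without any 1 of the 4 G13R libraries.

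In GFP cells RPL28 was at 595 and 622 FPKM after serum, against 495 and 594 FPKM in normal growth, so that the groups nearly touched. The log2 fold change was 0.16 ± 0.09 (limma adjusted p = 0.209), and the difference between the responses was 0.19 ± 0.13 (limma adjusted p = 0.605), so a larger response in G13R cells was not shown. The RPL28 span overlaps that of UBE2S, a ubiquitin-conjugating enzyme of the anaphase-promoting complex at a mean of 278.5 FPKM. UBE2S moved the other way, with log2 fold changes of -0.42 ± 0.08 in G13R cells and -0.87 ± 0.08 in GFP cells (limma adjusted p = 0.0101 and 0.000107). Whether reads of the overlap were divided between the genes was not tested. All 5 serum calls, RPL3, RPS26 and RPL24 in GFP cells and RPL28 and RPS26 in G13R cells, were lost without the filter on low genes and without limma's intensity trend. RPL3 and RPL24 were also lost with only the GFP libraries in the fit, and RPL24 with quantile normalization.

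**Figure D3:**
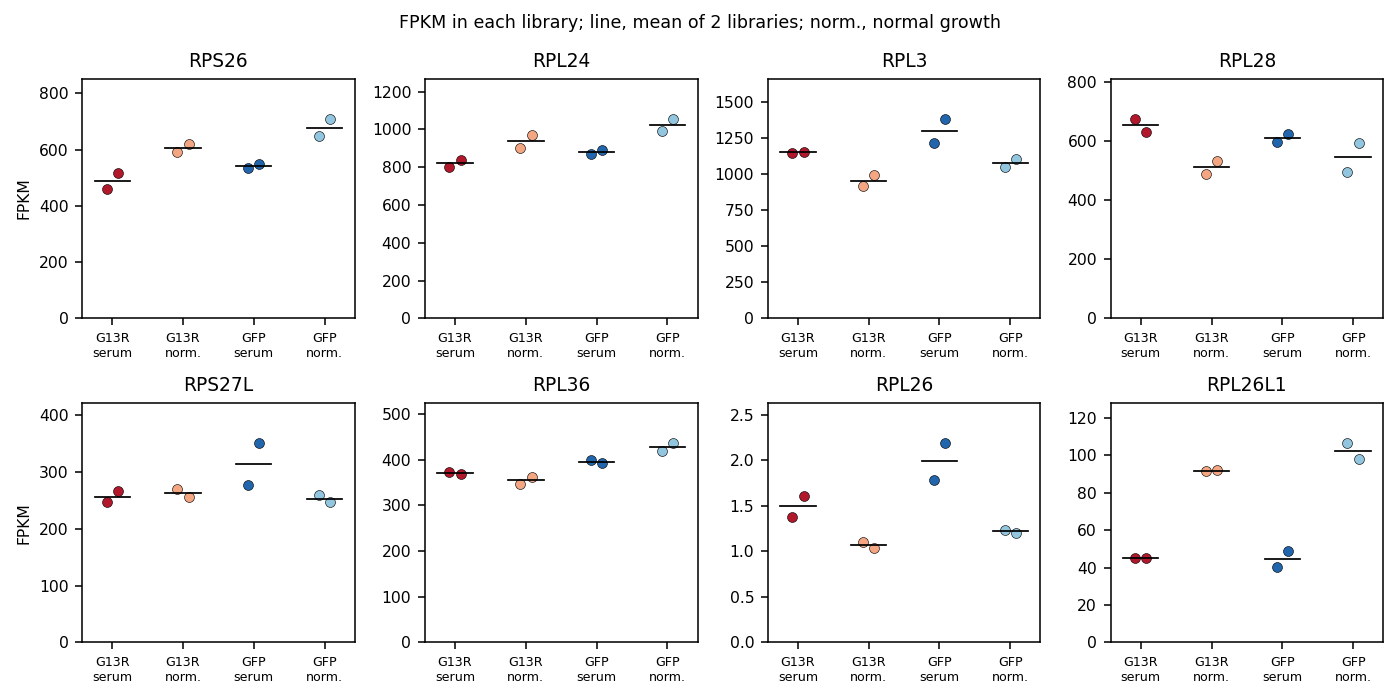
FPKM of 8 genes in each library (y axes from 0, scaled per gene), by group, with lines at the mean of 2 libraries. Serum libraries lie below normal growth libraries for RPS26, RPL24 and RPL26L1 and above them for RPL3 and RPL28 in both kinds of cell; RPL26 stays under 2.5 FPKM throughout.

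Among genes with a set role, none passed the threshold with serum other than RPS26. RPL5 was at 746 ± 9.42 FPKM in G13R serum, 745 ± 32.0 in G13R normal growth, 818 ± 12 in GFP serum and 829.6 ± 17.4 FPKM in GFP normal growth libraries (SD, n = 2 each). RPL11 was at 1273 ± 49.7, 1279 ± 19.9, 1482 ± 127 and 1503 ± 45.7 FPKM in the same groups in that order. The serum fold changes of these MDM2-binding proteins lay between -0.02 and 0.00 on the log2 scale. RPS6 was at 866 ± 2.47 FPKM in G13R serum, 832 ± 25.2 in G13R normal growth, 1013 ± 41.3 in GFP serum and 961 ± 19.6 FPKM in GFP normal growth libraries, with log2 fold changes of 0.06 ± 0.07 in G13R and 0.08 ± 0.07 in GFP cells.

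RPS19, the gene most often mutated in Diamond-Blackfan anaemia, was at 1532 and 1542 FPKM in G13R serum libraries, against 1271 and 1394 FPKM in G13R normal growth libraries. The log2 fold change was 0.21 ± 0.08 (limma adjusted p = 0.133), and in GFP cells it was 0.15 ± 0.08 (limma adjusted p = 0.211). RPL35A, another gene of that disease, had log2 fold changes of -0.13 ± 0.07 in G13R and -0.09 ± 0.07 in GFP cells, neither called. RPL13A, which has been tied to interferon-gamma control of translation, had 0.23 ± 0.10 in G13R and 0.19 ± 0.10 in GFP cells, neither called. RPL38, needed for translation of Hox mRNAs in mice, had -0.12 ± 0.08 in G13R and -0.18 ± 0.08 in GFP cells, and RPL27 had -0.06 ± 0.07 in G13R and -0.17 ± 0.07 in GFP cells, none called.

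The stalk proteins, which recruit elongation factors, and RPSA, which doubles as the laminin receptor, had serum fold changes between -0.05 and 0.14 on the log2 scale. RPLP0 was at 1969.8 ± 110 FPKM in G13R serum, 1893 ± 96.7 in G13R normal growth, 2295 ± 304 in GFP serum and 2211 ± 118 FPKM in GFP normal growth libraries. RPLP1 and RPLP2 had log2 fold changes of 0.14 ± 0.08 and 0.08 ± 0.09 in G13R cells, and -0.02 ± 0.08 and -0.05 ± 0.09 in GFP cells. RPSA had 0.01 ± 0.09 in G13R cells and -0.01 ± 0.09 in GFP cells. The ubiquitin fusion gene RPS27A had 0.01 ± 0.07 in both. RPS4X, the X-linked small subunit gene, had 0.12 ± 0.08 in G13R and -0.01 ± 0.08 in GFP cells, RPL10, a late-joining large subunit protein, had 0.15 ± 0.09 and 0.06 ± 0.09, and RPL22, which binds RNA off the ribosome, had 0.03 ± 0.07 and -0.01 ± 0.07. None of these was called.

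Over the 80 genes, the log2 serum responses of G13R and GFP cells, which share no libraries, correlated with Pearson's r of 0.703 and Spearman's rho of 0.641, and 57 genes had the same sign. Over all tested genes r was 0.687 and rho 0.694, and 76.8% had the same sign, against 71.2% of the family. These are descriptions over genes that share libraries and scaling, with no p. RPS26 and RPL24 stood at the low end of both responses and RPL28 and RPL3 near the high end.

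**Figure D4:**
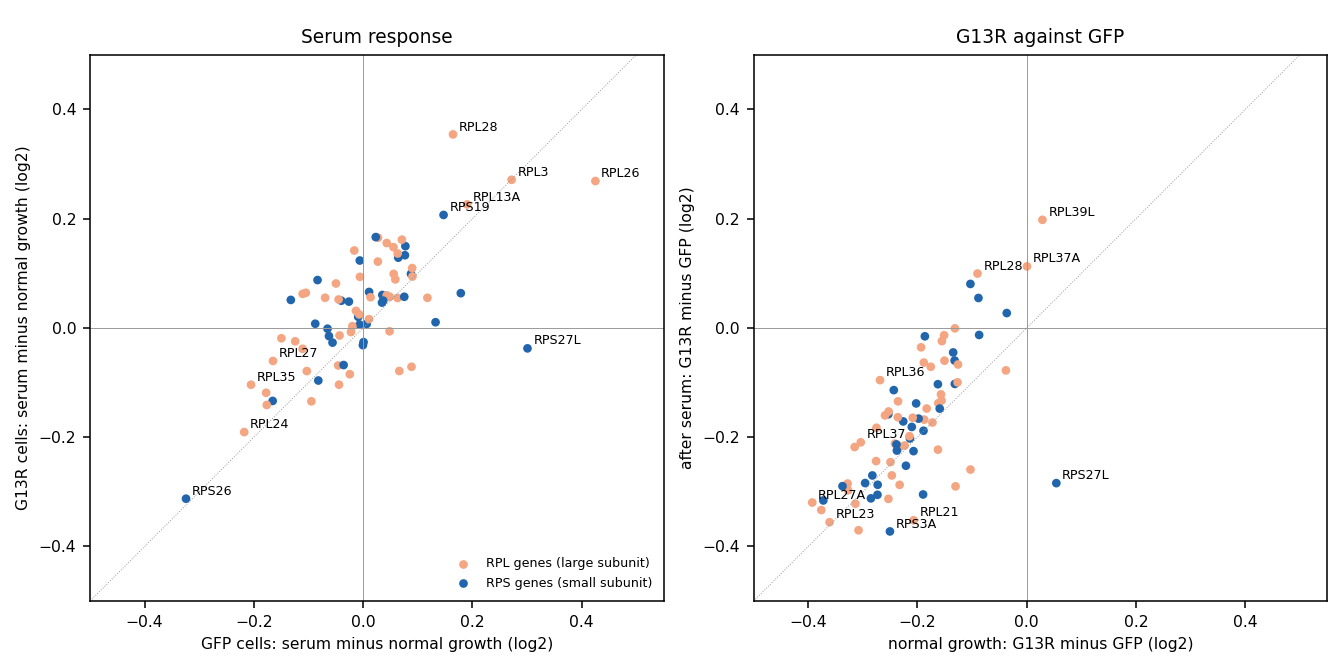
Log2 fold changes of the 80 tested genes. Left, serum minus normal growth in G13R cells (y axis) against GFP cells (x axis); right, G13R minus GFP after serum (y axis) against normal growth (x axis); orange, RPL genes; blue, RPS genes; dotted line, equality. Serum responses centre near 0 with RPS26 lowest on both axes, and most G13R differences lie below 0 on both axes.

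G13R libraries had slightly lower levels of nearly the whole family than GFP libraries. No single gene passed the threshold in the main fit. Some did with the replicate number as a block, as given below. In normal growth 77 of the 80 genes had a log2 fold change, G13R over GFP, below 0, with a median of -0.21 (quartiles -0.25 and -0.16), against a median of -0.07 over all tested genes. No gene was called by limma, 0 of 80, against 0.0462% of all genes. At an unadjusted p under 0.05 there were 53 of 80, against 15.1% of all. For 69 of the 80 both G13R libraries lay below both GFP libraries, against 34.3% of all genes. The median was -0.21 for the 31 small subunit genes, all of them below 0, and -0.22 for the 46 large subunit and stalk genes, of which 45 were below 0.

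After serum the picture was similar. A log2 fold change below 0 was seen for 74 of the 80 genes, with a median of -0.18 against -0.03 over all genes. Limma called 0 of 80, against 0.823% of all genes, and 39 had an unadjusted p under 0.05, against 20.8% of all. For 60 genes the G13R libraries lay below the GFP libraries without overlap, against 29.4% of all genes. The number of calls depended on a single library, GFP serum replicate 1. The family's median was -0.27 with that library left out. With replicate 2 of the GFP serum group left out instead, the median was -0.11. How many of all tested genes were called in these fits is not given here. A change in calls particular to the family was therefore not shown.

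The size of the shift depends on the scaling. With TPM scaling, the median over all genes in normal growth moved by 0.11 on the log2 scale, and the family's median was -0.09 in normal growth and -0.12 after serum. The family's median minus that of all genes was -0.14 both in normal growth and after serum with the values as deposited. It was -0.12 in normal growth and -0.14 after serum with TPM, and -0.13 and -0.14 with median-ratio scaling. With quantile normalization, which gives the same values to the same ranks in every library, these differences were -0.01 and -0.03, and 50 of the 80 genes were below 0 in each condition.

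The 67 other genes with a mean of 500 FPKM or more also lay mostly below 0. Their median log2 fold change, G13R over GFP, was -0.20 in normal growth, with 58 below 0 and 1 called, and -0.11 after serum, with 52 below 0 and 5 called. In normal growth, related lists lay below 0 as well. Below 0 were 73 of 76 mitochondrial ribosomal protein genes (median -0.18) and 21 of 22 ribosome biogenesis factors (median -0.20). So were 17 of 18 other genes with TOP mRNAs, most of them translation factors (median -0.21). After serum, 45 of the 76 mitochondrial genes (median -0.05) and 17 of the 18 listed genes with TOP mRNAs (median -0.22) were below 0. Of the 22 biogenesis factors, 20 were then above 0 (median 0.32). No difference between the family and these genes was tested.

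RPL27A (11:8703958-8736306), a large subunit protein, had the lowest fold change in normal growth. RPL27A was at 876 and 939 FPKM in G13R normal growth libraries, against 1131 and 1255 FPKM in GFP normal growth libraries, without overlap. Its log2 fold change was -0.39 ± 0.09 (limma adjusted p = 0.14), and after serum it was -0.32 ± 0.09 (limma adjusted p = 0.102). RPL23 (17:37004118-37010096), another MDM2-binding large subunit protein, was at 870.2 and 915 FPKM in G13R normal growth libraries, against 1112 and 1182 FPKM in GFP normal growth libraries. That was a log2 fold change of -0.36 ± 0.09 (limma adjusted p = 0.153), and after serum it was -0.36 ± 0.09 (limma adjusted p = 0.0758). RPL31 had -0.31 ± 0.08, RPL37 -0.30 ± 0.08 and RPL36 -0.27 ± 0.07 in normal growth (limma adjusted p = 0.162, 0.161 and 0.162).

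After serum the smallest p-values belonged to RPL21, RPS3A, RPL6, RPS14 and RPL23. RPL21 (13:27825446-27830828) was at 512 and 551 FPKM in G13R serum libraries, against 642 and 717 FPKM in GFP serum libraries, without overlap, a log2 fold change of -0.35 ± 0.08 (limma adjusted p = 0.0573). RPS3A (4:152020725-152025804), a small subunit protein at the mRNA exit side, was at 592 and 651 FPKM in G13R serum libraries, against 758 and 852 FPKM in GFP serum libraries, a log2 fold change of -0.37 ± 0.08 (limma adjusted p = 0.0583). RPL6 had -0.31 ± 0.07 (limma adjusted p = 0.059). RPS14, the gene lost in the 5q- syndrome, was at 832 and 878 FPKM in G13R serum libraries, against 1024 and 1090.3 FPKM in GFP serum libraries, a log2 fold change of -0.31 ± 0.07 (limma adjusted p = 0.0727). All 4 were below 0 in normal growth too, between -0.27 and -0.21.

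The genes above 0 were few. In normal growth they were RPS27L (0.05), RPL39L (0.03) and RPL37A (0.00), and after serum RPL39L (0.20), RPL37A (0.11), RPL28 (0.10), RPS15 (0.08), RPS9 (0.05) and RPS29 (0.03), all on the log2 scale and none called. Over the 80 genes, the G13R differences in normal growth and after serum, which share no libraries, correlated with r of 0.708 and rho of 0.715, and 75 had the same sign. Over all tested genes r was 0.179 and rho 0.205, and 57.5% had the same sign. These are descriptions over genes, with no p.

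**Figure D5:**
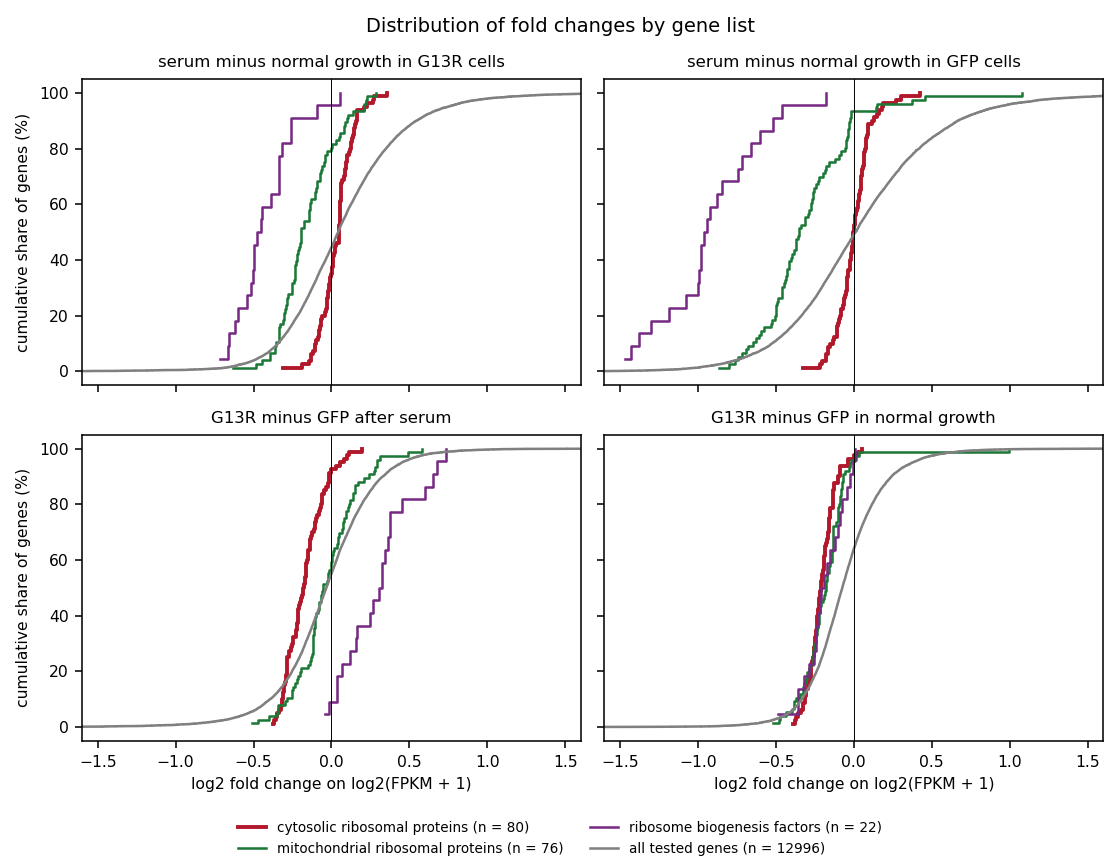
Cumulative share of genes (y axis, percent) against log2 fold change (x axis) for the cytosolic ribosomal protein genes, the mitochondrial ribosomal protein genes, ribosome biogenesis factors and all tested genes. With serum (upper panels) the cytosolic family and all tested genes centre near 0. The mitochondrial genes and biogenesis factors lie mostly below 0. Between G13R and GFP (lower panels) the cytosolic family lies mostly below 0 in both conditions.

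No gene's serum response differed between the cell kinds by limma: 0 of 80 were called, against 0% of all tested genes, and 1 had an unadjusted p under 0.05, against 11.8% of all. The median difference, G13R minus GFP, was 0.03. The 1 gene was RPS27L (15:63418071-63450220), the paralog of RPS27. RPS27L was at 246 and 265 FPKM in G13R serum libraries, against 269 and 256 FPKM in G13R normal growth libraries, which overlapped. It was at 277 and 351 FPKM in GFP serum libraries, against 259 and 246 FPKM in GFP normal growth libraries, which did not. The log2 fold changes were -0.04 ± 0.11 in G13R cells (limma adjusted p = 0.848) and 0.30 ± 0.11 in GFP cells (limma adjusted p = 0.0547), and their difference was -0.34 ± 0.15 (limma adjusted p = 0.417). Without GFP serum replicate 1 that difference was called, at a limma adjusted p of 0.0344 (range over all settings 0.0344 to 0.724). Other small p-values were those of RPL36 (0.17 ± 0.09), RPS15 (0.18 ± 0.12) and RPL28.

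The 4 paralogs that the name rule takes averaged less than their parents. RPS27, the parent of RPS27L, was at 1931 and 2142 FPKM in G13R serum, 1837 and 1872 in G13R normal growth, 2194 and 2921 in GFP serum and 2304 and 2502 FPKM in GFP normal growth libraries. RPS27 had the widest ratio between libraries of the 76 genes and is also the member whose transcripts share most with others, 66.5% of 50-base windows. RPL10L, a retrogene needed in male germ cells of mice, was at 24.0 to 33.8 FPKM over the 8 libraries, against 1619.8 to 2275 FPKM for RPL10.

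RPL39L, known from testis and some cancers, was at 31.1 to 39.8 FPKM, against 572 to 781 FPKM for RPL39. Of RPL10L windows, 0.131% are shared with RPL10. RPL3L, the striated muscle form of RPL3, was at 0.00 to 0.813 FPKM, and 1 G13R normal growth library listed it at 0. None of the 3 tested paralogs was called in any comparison with all libraries.

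RPL26 (17:8271956-8286505) stood apart from the other large subunit genes. It was at 1.37 and 1.61 FPKM in G13R serum, 1.10 and 1.03 in G13R normal growth, 1.78 and 2.19 in GFP serum and 1.24 and 1.2 FPKM in GFP normal growth libraries. Apart from the paralogs, no other gene of the family averaged less than the 222 FPKM of RPS28. The span given for RPL26 also covers that of KRBA2, which was at 0.0522 to 0.820 FPKM. The cause of the low level was not tested, and the protein is a standard part of the large subunit. RPL26L1 (5:172385732-172396774), the paralog that the name rule leaves out, was at 45.3 and 45.3 FPKM in G13R serum libraries, against 91.6 and 92.2 FPKM in G13R normal growth libraries. RPL26L1 was at 40.2 and 49.1 FPKM in GFP serum libraries, against 107 and 98.3 FPKM in GFP normal growth libraries. The log2 fold change was -1.0 ± 0.10 in G13R cells (limma adjusted p = 0.000478) and -1.19 ± 0.10 in GFP cells (limma adjusted p = 7.88e-05).

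Other paralogs outside the name rule also fell. RPL7L1, a nucleolar factor related to RPL7, fell by 0.34 ± 0.09 on the log2 scale in G13R cells and by 0.71 ± 0.09 in GFP cells (limma adjusted p = 0.0373 and 0.00051). The G13R call was lost without any 1 of the G13R libraries or GFP normal growth replicate 1. It was also lost with quantile normalization, without the filter and without the trend. RPL22L1, the paralog of RPL22, fell by 0.70 ± 0.13 in GFP cells (limma adjusted p = 0.00346) and had -0.30 ± 0.13 in G13R cells (limma adjusted p = 0.16). RPL36AL was not called, with 0.04 ± 0.08 in G13R and -0.06 ± 0.08 in GFP cells. FAU and GNB2L1 (RACK1), small subunit proteins with other names, averaged 593 and 1369 FPKM. Neither was called in any comparison by limma, and their log2 fold changes in normal growth, G13R over GFP, were -0.34 ± 0.11 and -0.28 ± 0.09 (limma adjusted p = 0.195 and 0.192).

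Of 22 ribosome biogenesis factors, 11 fell with serum in G13R cells and 21 in GFP cells and 0 rose, where 4.62% of all tested genes fell in G13R cells and 15.7% in GFP cells, with median log2 fold changes of -0.46 and -0.95. RRP9, a box C/D snoRNP protein, had -0.71 ± 0.17 in G13R and -1.47 ± 0.17 in GFP cells (limma adjusted p = 0.0217 and 0.000292), and NOLC1, a nucleolar chaperone, had -0.66 ± 0.15 and -1.18 ± 0.15 (limma adjusted p = 0.0189 and 0.000482). Set against the same shares of all genes, of 76 mitochondrial ribosomal protein genes 9 fell and 0 rose in G13R cells, and 39 fell and 2 rose in GFP cells, with medians of -0.19 and -0.35. Of 12 chaperones and importers of ribosomal proteins, 3 fell in G13R cells and 11 in GFP cells, GRWD1, the chaperone of RPL3, among the GFP calls at -0.98 ± 0.13 (limma adjusted p = 0.000671). Leaving out each library in turn, between 1 and 17 biogenesis factors, 1 and 18 mitochondrial genes and 1 and 5 chaperones and importers fell in G13R cells, with the lowest counts on leaving out a G13R library and the highest on leaving out a GFP serum library. In GFP cells the ranges were 18 to 21, 22 to 41 and 7 to 10. No cytosolic ribosomal protein gene had a serum fold change as large in size as the median of the biogenesis list in the same cells.

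The next list held 18 other genes with TOP mRNAs, most of them translation factors. In G13R cells 1 rose and 2 fell, and in GFP cells 2 rose and 3 fell. These shares were near the 12.9% and 30.7% of all tested genes called in either direction. In GFP cells 5 rose and 3 fell with TPM, and 7 rose and 2 fell with quantile normalization. EIF4B, the helicase cofactor, rose by 0.43 ± 0.08 in G13R and 0.51 ± 0.08 in GFP cells (limma adjusted p = 0.0105 and 0.00172), and NPM1, a nucleolar chaperone, fell by 0.46 ± 0.08 and 0.62 ± 0.08 (limma adjusted p = 0.0059 and 0.000535). Of 13 genes of the mTOR pathway with LARP1, 2 fell in G13R cells (0 to 3 leaving out a library), and 5 fell and 2 rose in GFP cells, to be read against the same 12.9% and 30.7%. LARP1 had -0.14 ± 0.12 in G13R cells (limma adjusted p = 0.473) and -0.59 ± 0.12 in GFP cells (limma adjusted p = 0.00518).

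The G13R calls of RRP9, NOLC1 and EIF4B were lost without any 1 of the 4 G13R libraries, and that of NPM1 without either G13R serum library. These calls were also lost without the filter and without the trend. None of the genes of these lists was called between G13R and GFP cells in either condition by limma with all libraries. That result depended on a single library: it did not hold for the biogenesis factors and the genes with TOP mRNAs after serum without GFP serum replicate 1.

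Reads may be divided among near-identical copies. The table holds 27 rows named as ribosomal protein pseudogenes, whose summed FPKM was at most 0.379% of the family's in any library, with RPSAP58 highest at a mean of 148.1 FPKM. Over the 80 genes matched in a GENCODE transcript set, a median of 11.9% of 50-base windows occur in a transcript of another gene, up to 66.5% in RPS27 and 52.2% in RPL12, and 30.3% in RPL3. The spans of 23 genes hold separate snoRNA rows. How the authors' counting treated such reads was not tested.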

How the data were processed

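Poly(A) RNA of U2OS cells was sequenced in 8 libraries, 2 in each of 4 groups. The authors deposited 1 table of FPKM values per gene and library, made with TopHat2 2.0.13 and Cufflinks 2.2.1 on hg19, with the fly build BDGP5 also named, per the submitters' processing notes. The sources used here do not give the gene annotation. Column names identified the libraries (C was taken to mean normal growth), and 0 columns had no match. FPKM keeps no counts: among values under 0.25 FPKM, 11.9 to 15.5% lay at the commonest ratio between libraries, so whole reads could not be recovered and depth stays unknown.

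The 12996 genes at 1 FPKM or more in at least 2 libraries were fitted on the log2(FPKM + 1) scale by limma-trend (limma 3.58.1, R 4.3.3). All 8 libraries entered 1 fit (4 residual degrees of freedom). A gene was called at a Benjamini-Hochberg adjusted p under 0.05 over all genes, and all adjusted p-values come from these fits. The fold change scale understates the change of low genes. Starts count from 0 in the table and were raised by 1. The script was tested on simulated data.

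The members, the gene lists and the comparisons were chosen with earlier results of these data known. Genes named were the called members (or the 5 of smallest p), the 5 highest and 5 lowest by mean, genes with a set role, and paralogs with their parents; some genes of these lists are not reported here. Further genes named above 0 between G13R and GFP cells, and those of the other lists, were taken from their ranks after the values were seen. Promoter windows came from RefSeq (GRCh38.p14), shared 50-base windows from GENCODE transcripts on GRCh38. The alternatives were median-ratio, quantile and TPM scaling, no filter, a filter at 5 FPKM, a pseudocount of 0.1, only the compared libraries, no trend, a block for the replicate number, a minimum of 1.5-fold, and leaving out each library. TPM scaling and leaving out RPL26 with the paralogs were chosen after seeing the data.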

Additional observations from a re-analysis of the deposited data

Results flagged for a closer look

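RPL36 (19:5674958-5691887), a large subunit protein, lay above normal growth after serum in both G13R libraries and below it in both GFP libraries. It was at 373 and 368 FPKM in G13R serum libraries, both above the 347 and 363 FPKM of G13R normal growth libraries, and at 399 and 393 FPKM in GFP serum libraries, both below the 419 and 437 FPKM of GFP normal growth libraries. The difference between the log2 responses, G13R minus GFP, was 0.173 ± 0.09 (SE) and was not called by limma (adjusted p = 0.5).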

How the results depend on the processing

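No result changed sign past the threshold under any alternative, and counts of called genes moved most. With serum in G13R cells, 2 genes were called, against 11 with quantile normalization, 7 with TPM scaling, 0 without a filter, 0 without the trend, 0 with a 1.5-fold minimum and 0 to 3 leaving out a library. With serum in GFP cells, 3 were called, against 6 with median-ratio scaling, 19 with quantile normalization, 13 with TPM scaling, 0 without a filter, 1 with only the compared libraries, 1 without the trend, 0 with a 1.5-fold minimum and 0 to 7 leaving out a library. Between G13R and GFP cells in normal growth, 0 were called, and 0 to 3 leaving out a library; the median of -0.2095 was -0.0142 with quantile normalization and -0.0889 with TPM scaling. After serum 0 were called, against 2 with quantile normalization, 3 with a filter at 5 FPKM and 0 to 38 leaving out a library; the median of -0.1772 was -0.0292 with quantile normalization and -0.2682 to -0.1111 leaving out a library. For the difference of responses, 0 were called, and 0 to 1 leaving out a library, with a median between -0.0354 and 0.1223. Where a library was left out, the lone library of its group was assumed to vary like the others. How many of all tested genes were called in those fits is not given here, so their counts are not taken as particular to the family. The causes of these changes were not tested.

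The share of summed FPKM without the 3 most abundant genes was 15.61% in G13R serum, 15.04% in G13R normal growth, 16.86% in GFP serum and 16.06% in GFP normal growth libraries, and without ACTB in the sum it was 16.92% in G13R normal growth libraries. Among single genes, 859 of the recomputed values kept direction and side of the threshold, 144 lost a call and 46 gained one.

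Over all tested genes, the deviations of same-numbered libraries correlated weakly, between 0.0169 and 0.121 over 6 pairs of groups. Such a correlation cannot show a shift that the genes of a library share. In this family replicate 2 was above replicate 1 for 66, 74, 72 and 70 of 81 genes in the 4 groups. Whether the replicate numbers pair the libraries is therefore not settled. With the replicate number as a block, 8 genes of the family were called with serum in G13R cells and 9 in GFP cells. Between G13R and GFP cells, 11 were called in normal growth, 24 after serum and 0 for the difference of responses. The share of all tested genes called in that fit is not given here, so these counts are not read as particular to the family.

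Depth is unknown, and 2 libraries a group limit every test.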
